A study of Homo sapiens with 12 samples.

Results

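Interferon-stimulated genes were followed through 6 groups of pancreatic cancer cell cultures grown inside hydrogels. The list held 43 gene symbols, chosen by name with earlier results of these data known. Of these, 42 had a row among the 16299 genes of the expression table and 1, IRF9, was not analysed here. The 42 genes passed the filter on low values (1 RPKM or more in 2 libraries or more, where RPKM is the number of reads per length of transcript, scaled to library size) and were tested together with all 15794 genes that passed it. They were placed in role groups: RNA sensors and a cofactor, STAT and IRF transcription factors, the ISG15 conjugation system, the IFIT, OAS and MX families, membrane proteins that restrict viruses, and other effectors.

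Poly-A RNA was sequenced from 2 established human lines of pancreatic ductal adenocarcinoma, PANC1 and BXPC3. Each line was embedded in 7.5% GelMA (gelatin methacryloyl, gelatin modified so that it can be cross-linked), in 5% GelMA or in collagen, giving PANC1 in 7.5% GelMA, in 5% GelMA and in collagen, and BXPC3 in 7.5% GelMA, in 5% GelMA and in collagen. Every group held 2 libraries, no interferon or other agent was named in the labels, and all cells were grown in high glucose DMEM with 10% foetal bovine serum. Collagen gels are a different material from GelMA and not a zero concentration of it. Each line is a single cell line, and the labels do not say whether the 2 libraries of a group came from separate cultures, so p-values speak of the spread between library pairs, and that spread could be purely technical. In bulk libraries fewer cells expressing a gene and less RNA per cell cannot be told apart.

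Interferons are secreted when cells sense foreign or misplaced nucleic acid. Type I and type III interferons bind surface receptors whose kinases, JAK1 and TYK2, activate STAT factors. STAT2 and IRF9 are subunits of the factor ISGF3, which binds a promoter element called the interferon-stimulated response element, and its targets include the sensors and effectors listed here. Many carcinoma lines express a part of this gene set without added interferon.

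SMAD4, a TGF-beta mediator that is deleted in BXPC3, was at 3.94 to 4.55 log2 RPKM in the 6 PANC1 libraries and at -5.92 to -5.35 in the 6 BXPC3 libraries. The epithelial genes KRT8, KRT18 and KRT19 were above 9 log2 RPKM in every library. The epithelial genes EPCAM (3.715 to 4.91 in PANC1, 5.92 to 6.20 in BXPC3) and CDH1 (4.20 to 4.86 in PANC1, 8.22 to 8.40 in BXPC3) were lower in PANC1. Genes of a mesenchymal state were higher in PANC1. VIM was at 11.65 to 11.93 in PANC1 and 5.01 to 5.78 in BXPC3, ZEB1 at 4.99 to 5.78 and 0.645 to 1.16, and CDH2 at 4.95 to 5.68 and 0.40 to 1.22. Of 6 immune markers, CD14 was at 2.44 to 3.08 in PANC1 and 3.78 to 4.41 in BXPC3, ITGAM at 0.08 to 1.67 in PANC1 and 1.07 to 1.48 in BXPC3, and CD3E at -5.58 to -4.76 in PANC1 and 0.13 to 1.12 in BXPC3. The other 3 were not analysed here. In PANC1 the mean log2 RPKM of 13 mitochondrially encoded genes was 12.10 to 12.13 in 7.5% GelMA, 12.03 to 12.04 in 5% GelMA and 11.64 to 11.69 in collagen. ITGAM in PANC1 was at 1.67 and 1.57 log2 RPKM in 7.5% GelMA, 1.54 and 1.25 in 5% GelMA and 0.08 and 0.39 in collagen, and the collagen gene COL1A1 at 8.48 and 8.71 log2 RPKM in 7.5% GelMA, 7.72 and 7.75 in 5% GelMA and 6.52 and 6.49 in collagen. The part of these differences in the results was not tested.

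In PANC1, interferon-stimulated genes were highest in 5% GelMA. The median over the 42 genes was 3.65 and 3.72 log2 RPKM in the 7.5% GelMA libraries, 4.67 and 4.73 in the 5% GelMA libraries and 3.69 and 3.58 in the collagen libraries, while the median over the whole table was 3.99 in all 12 libraries. Calls were made in limma at an adjusted p under 0.05 (Benjamini-Hochberg over the 15794 genes). In 7.5% GelMA against collagen 12 of the 42 genes rose, 13 fell and 17 were not called, where 53.8% of all genes were called, 27.2% higher and 26.6% lower. With 59.5% of the list called, these counts were near the background. In 5% GelMA against collagen 29 rose, 1 fell and 12 were not called, where 46.2% of all genes were called, 23% higher and 23.2% lower. The median log2 fold change of the list was -0.03 in 7.5% GelMA and 0.81 in 5% GelMA, beside a median near 0 over all genes. Both comparisons use the same 2 collagen libraries. With the concentrations averaged, 27 genes rose and 7 fell, where 55.1% of all genes were called, 27.7% higher and 27.4% lower.

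The direct comparison of the 2 GelMA concentrations in PANC1 pointed one way. Of the 42 genes, 35 were called lower in 7.5% than in 5% GelMA, 0 were called higher and 7 were not called, where 18.7% of all genes were called, 9.16% higher and 9.56% lower. At an unadjusted p under 0.05 limma gave 37 lower and 0 higher, and the fold change was negative for all 42. The median was -0.74 log2, and 11 genes were at least 2-fold lower. Leaving out 1 of the 4 libraries at a time gave 27 to 35 genes called lower.

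**Figure D1:**
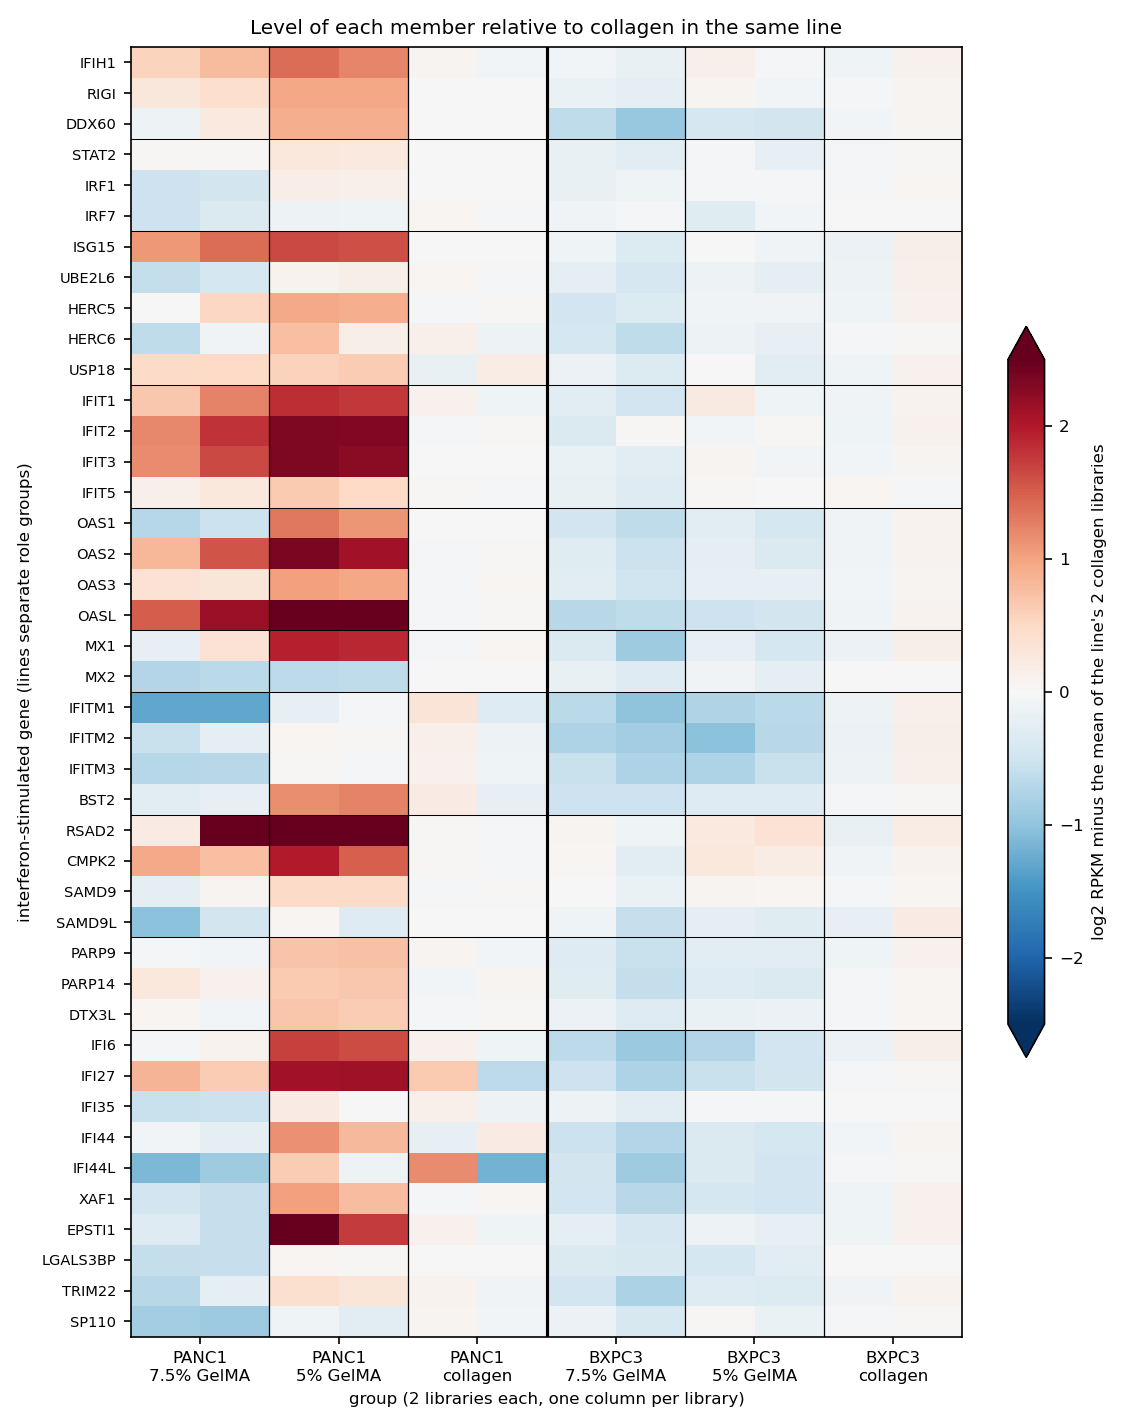
Level of each of the 42 interferon-stimulated genes (rows, in role groups) in each of the 12 libraries (columns), as log2 RPKM minus the mean of the same line's 2 collagen libraries; the colour scale ends at 2.5 log2 in both directions. The 7.5% GelMA columns of PANC1 hold both colours (12 higher, 13 lower), the 5% GelMA columns of PANC1 are red for most genes (29 called higher), and the GelMA columns of BXPC3 are mostly pale blue.

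The cytoplasmic RNA sensor genes IFIH1 and RIGI rose in both GelMA concentrations. IFIH1, which encodes the long double-stranded RNA sensor MDA5, was at 4.26 and 4.50 log2 RPKM in 7.5% GelMA, 5.10 and 4.94 in 5% GelMA and 3.78 and 3.64 in collagen. RIGI, the sensor of 5'-triphosphate RNA, was at 5.13 and 5.27 log2 RPKM in 7.5% GelMA, 5.81 and 5.81 in 5% GelMA and 4.85 and 4.83 in collagen. For both genes the 5% libraries were highest and the collagen libraries lowest, with no overlap between groups. Against collagen IFIH1 rose by 0.67 ± 0.11 log2 in 7.5% GelMA and by 1.31 ± 0.11 in 5% GelMA (SE, n = 2 libraries a group here and below; limma adjusted p = 0.000475 and 9.61e-06). RIGI rose by 0.36 ± 0.06 log2 in 7.5% GelMA and by 0.97 ± 0.06 in 5% GelMA (adjusted p = 0.000805 and 2.13e-06). DDX60, a helicase described as a cofactor of RIG-I-like sensors, was at 3.16 and 3.51 log2 RPKM in 7.5% GelMA, 4.18 and 4.19 in 5% GelMA and 3.28 and 3.26 in collagen. Its 7.5% and collagen libraries overlapped, and it was called against collagen in 5% GelMA alone (0.91 ± 0.12 log2).

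The changes of the STAT and IRF genes were small. STAT2, the interferon-specific subunit of ISGF3, was at 5.49 and 5.50 log2 RPKM in 7.5% GelMA, 5.74 and 5.71 in 5% GelMA and 5.47 and 5.46 in collagen. The 5% libraries stood above the rest and STAT2 rose there by 0.26 ± 0.05 log2 (adjusted p = 0.00348), while its change in 7.5% GelMA was 0.03 ± 0.05 (adjusted p = 0.657). IRF1, a factor induced by interferon gamma that binds related elements, was at 5.32 and 5.38 log2 RPKM in 7.5% GelMA, 5.99 and 5.96 in 5% GelMA and 5.84 and 5.83 in collagen. It fell by 0.48 ± 0.04 log2 in 7.5% GelMA and rose by 0.14 ± 0.04 in 5% GelMA, the smallest change called at 5%, which was lost when any 1 of the 4 libraries was left out (adjusted p up to 0.123). IRF7, which amplifies type I interferon genes, was at 3.64 and 3.79 log2 RPKM in 7.5% GelMA, 4.03 and 4.05 in 5% GelMA and 4.21 and 4.11 in collagen, in the order collagen, 5%, 7.5% from high to low, and its changes were not called (-0.44 ± 0.19 log2 in 7.5% GelMA and -0.12 ± 0.19 in 5% GelMA). The 7.5% change of IRF7 was called on the scale log2(RPKM + 1), at -0.417 (adjusted p = 0.0011), and at -0.445 in a fit of the PANC1 libraries alone (adjusted p = 0.00196) or with no mean-variance trend (adjusted p = 0.00319).

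ISG15 is a ubiquitin-like protein that is joined to other proteins by UBE2L6 and HERC5 and removed by USP18. ISG15 (ENSG00000187608, chromosome 1, 1001138 to 1014540, plus strand) was at 4.68 and 4.99 log2 RPKM in 7.5% GelMA, 5.24 and 5.20 in 5% GelMA and 3.61 and 3.58 in collagen. The collagen libraries were far below both GelMA groups, and ISG15 rose 2.36-fold in 7.5% GelMA (1.24 ± 0.12 log2, adjusted p = 1.27e-05) and 3.1-fold in 5% GelMA (1.63 ± 0.12 log2, adjusted p = 3.70e-06). USP18 was at 2.66 and 2.68 log2 RPKM in 7.5% GelMA, 2.76 and 2.81 in 5% GelMA and 2.00 and 2.37 in collagen, higher by 0.49 ± 0.15 log2 in 7.5% GelMA and by 0.60 ± 0.15 in 5% GelMA, and was among the 7 genes not called between the concentrations. Both USP18 calls were lost without collagen library 1 (adjusted p = 0.126 in 7.5% and 0.0545 in 5% GelMA), and that in 7.5% GelMA also without either 7.5% library (up to 0.0663). The E2 enzyme UBE2L6 was at 3.13 and 3.28 log2 RPKM in 7.5% GelMA, 3.82 and 3.87 in 5% GelMA and 3.77 and 3.68 in collagen. It fell by 0.52 ± 0.10 log2 in 7.5% GelMA and was not called in 5% GelMA (0.12 ± 0.10). HERC5, the main human ISG15 ligase, rose in 5% GelMA by 0.93 ± 0.15. HERC6 stayed under 1 RPKM in every PANC1 library and was not called against collagen in 5% GelMA (0.45 ± 0.22 log2), although without 5% library 2 it was, at 0.743 (adjusted p = 0.0259).

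The IFIT proteins bind viral RNA, and the 4 measured genes rose in both GelMA concentrations. IFIT3 (ENSG00000119917, chromosome 10, 89327894 to 89340971, plus strand) was at 4.75 and 5.23 log2 RPKM in 7.5% GelMA, 5.91 and 5.83 in 5% GelMA and 3.56 and 3.59 in collagen. IFIT2 was at 5.18 and 5.77 log2 RPKM in 7.5% GelMA, 6.30 and 6.29 in 5% GelMA and 3.93 and 4.002 in collagen. IFIT1 was at 4.53 and 5.09 log2 RPKM in 7.5% GelMA, 5.69 and 5.62 in 5% GelMA and 3.96 and 3.74 in collagen. In each of the 3 the groups were separate, with 5% highest and collagen lowest, and the second 7.5% library lay above the first. IFIT3 rose by 1.42 ± 0.12 log2 in 7.5% GelMA (adjusted p = 8.65e-06) and by 2.30 ± 0.12 in 5% GelMA (adjusted p = 7.26e-07). IFIT2 rose by 1.51 ± 0.17 log2 in 7.5% GelMA and 2.33 ± 0.17 in 5% GelMA, IFIT1 by 0.96 ± 0.17 in 7.5% GelMA and 1.81 ± 0.17 in 5% GelMA, and IFIT5 by 0.20 ± 0.07 in 7.5% GelMA and 0.57 ± 0.07 in 5% GelMA. Between the concentrations IFIT2 differed by -0.82 ± 0.17 log2 (7.5% minus 5%), a call lost at an adjusted p of 0.0523 without 5% library 2 and 0.0521 without 5% library 1; leaving out single libraries gave -1.12 to -0.53.

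The OAS genes encode enzymes that make 2'-5' oligoadenylate when they bind double-stranded RNA, and OASL is a relative without that activity that supports RIG-I signalling. OASL (ENSG00000135114, chromosome 12, 121019111 to 121039242, minus strand) held the largest change of the list. It was at 3.81 and 4.45 log2 RPKM in 7.5% GelMA, 5.22 and 5.10 in 5% GelMA and 2.26 and 2.33 in collagen, that is 14 and 21.9 RPKM in 7.5% GelMA, 37.3 and 34.3 in 5% GelMA and 4.8 and 5.04 in collagen. OASL rose 3.56-fold in 7.5% GelMA (1.83 ± 0.16 log2, adjusted p = 8.65e-06) and 7.28-fold in 5% GelMA (2.86 ± 0.16 log2, adjusted p = 8.90e-07). OAS2 was at 1.63 and 2.37 log2 RPKM in 7.5% GelMA, 3.16 and 2.90 in 5% GelMA and 0.77 and 0.82 in collagen, with 7.5% libraries that lay 0.74 apart and still between the other groups. It rose by 1.20 ± 0.19 log2 in 7.5% GelMA and by 2.23 ± 0.19 in 5% GelMA, and its difference between 7.5% and 5% ran from -1.40 to -0.66 when single libraries were left out, the weakest value being that without 7.5% library 1.

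OAS1 did not follow its relatives in 7.5% GelMA. OAS1 (ENSG00000089127, chromosome 12, 112906777 to 112933222, plus strand) was at 0.57 and 0.75 log2 RPKM in 7.5% GelMA, 2.61 and 2.38 in 5% GelMA and 1.29 and 1.28 in collagen, so that collagen lay between the GelMA groups. It fell by 0.62 ± 0.11 log2 in 7.5% GelMA (adjusted p = 0.00069), rose by 1.21 ± 0.11 in 5% GelMA (adjusted p = 1.37e-05) and differed by -1.83 ± 0.11 between 7.5% and 5% (adjusted p = 8.39e-06). OAS3 rose by 0.33 ± 0.07 log2 in 7.5% GelMA and by 0.99 ± 0.07 in 5% GelMA. IRF1 and XAF1, an apoptosis-associated gene, were the other 2 genes called lower in 7.5% and higher in 5% GelMA, XAF1 with -0.53 ± 0.10 log2 in 7.5% and 0.90 ± 0.10 in 5% GelMA.

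The 2 MX genes, GTPases that restrict viruses, parted. MX1 was at 1.34 and 1.90 log2 RPKM in 7.5% GelMA, 3.49 and 3.43 in 5% GelMA and 1.48 and 1.59 in collagen. Its 7.5% libraries lay on either side of the collagen libraries, and it rose in 5% GelMA by 1.92 ± 0.20 log2 (adjusted p = 4.60e-05), with 0.08 ± 0.20 in 7.5% GelMA (not called). MX2 was at 4.51 and 4.57 log2 RPKM in 7.5% GelMA, 4.60 and 4.62 in 5% GelMA and 5.24 and 5.25 in collagen. It was the gene that fell in 5% GelMA, by 0.64 ± 0.06 log2 (adjusted p = 1.87e-05), and it fell in 7.5% GelMA by 0.70 ± 0.06. Without collagen library 2, 3 genes were called lower in 5% GelMA in place of 1.

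Among the membrane proteins that restrict virus entry or release, the IFITM genes fell in 7.5% GelMA and BST2 rose in 5% GelMA. IFITM1 (ENSG00000185885, chromosome 11, 313506 to 315272, plus strand) was at 3.65 and 3.65 log2 RPKM in 7.5% GelMA, 4.75 and 4.90 in 5% GelMA and 5.27 and 4.63 in collagen. Its 5% libraries lay within the span of the collagen libraries, and both 7.5% libraries were below all others. IFITM1 fell by 1.30 ± 0.18 log2 in 7.5% GelMA (adjusted p = 0.000195), the largest fall there, and IFITM3 fell by 0.70 ± 0.10 and IFITM2 by 0.39 ± 0.14. In 5% GelMA none of the 3 was called (-0.12 ± 0.18, -0.0012 ± 0.10 and 0.04 ± 0.14 log2 for IFITM1, IFITM3 and IFITM2), although IFITM1 was called without collagen library 2 (-0.447, adjusted p = 0.0344). The IFITM2 call in 7.5% GelMA was lost without collagen library 1 or 7.5% library 1 (adjusted p = 0.238 and 0.265). IFITM genes are near-identical neighbours, and IFITM1 and IFITM2 overlap in GENCODE 29, so reads could be split between them and these values are uncertain.

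BST2, or tetherin, holds budding virus at the cell surface. It was at 3.51 and 3.56 log2 RPKM in 7.5% GelMA, 4.93 and 5.01 in 5% GelMA and 3.98 and 3.56 in collagen. The 5% libraries were above every other PANC1 library, and BST2 rose there by 1.20 ± 0.10 log2 (adjusted p = 1.22e-05), with -0.23 ± 0.10 in 7.5% GelMA (not called, but called at -0.446 without collagen library 2). The difference between 7.5% and 5% GelMA was -1.43 ± 0.10 log2 (adjusted p = 2.49e-05). IFI6, a mitochondrial and endoplasmic reticulum protein that restricts flaviviruses, had the same form, at 4.63 and 4.77 log2 RPKM in 7.5% GelMA, 6.40 and 6.32 in 5% GelMA and 4.80 and 4.58 in collagen. It rose by 1.68 ± 0.13 log2 in 5% GelMA and differed by -1.66 ± 0.13 between the concentrations.

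**Figure D2:**
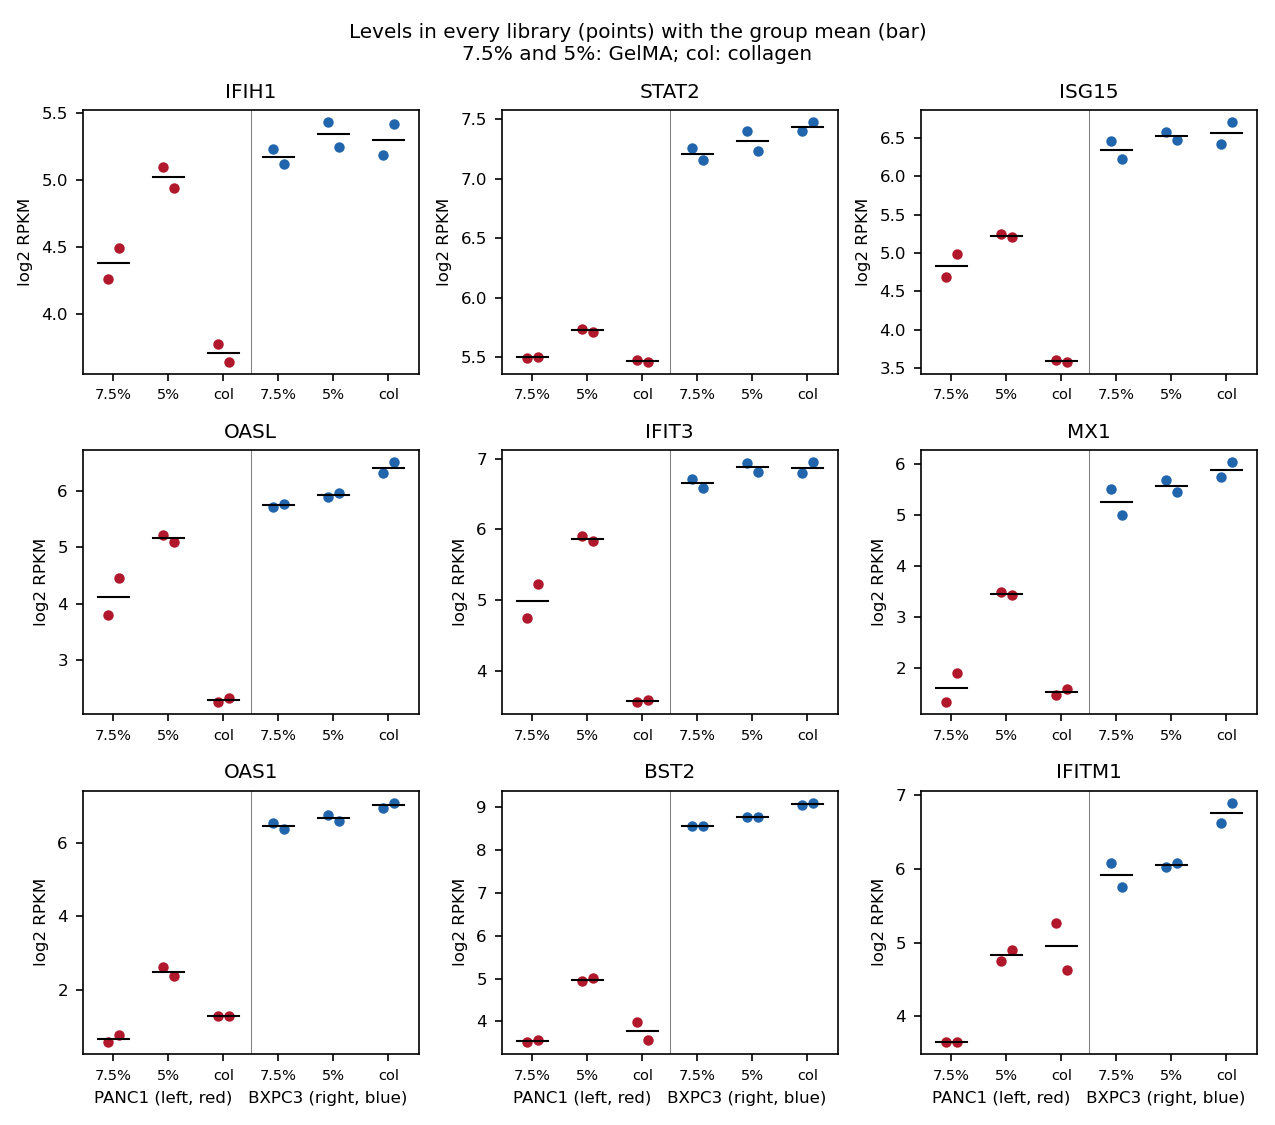
Log2 RPKM of 9 interferon-stimulated genes in every library (points) with the group mean (bar), for PANC1 (red, left) and BXPC3 (blue, right) in 7.5% GelMA, 5% GelMA and collagen; each gene has its own axis, which does not start at 0. IFIH1, ISG15, OASL and IFIT3 step down from 5% to 7.5% GelMA to collagen in PANC1, MX1 and BST2 are high in 5% GelMA alone, OAS1 is lowest in 7.5% GelMA, and IFITM1 is low in 7.5% GelMA alone.

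Several genes with large fold changes in 5% GelMA were barely expressed in PANC1. RSAD2 encodes viperin, which makes a chain-terminating nucleotide, and CMPK2, its neighbour, a nucleotide kinase. RSAD2 was at -2.18 and 0.50 log2 RPKM in 7.5% GelMA, 0.26 and 0.18 in 5% GelMA and -2.34 and -2.42 in collagen. One 7.5% library was near the collagen level and the other above the 5% level; the 5% change was 2.60 ± 0.63 log2 (adjusted p = 0.00692), and the 7.5% change was 1.54 ± 0.63 and not called, or 2.88 without 7.5% library 1 and 0.20 without library 2. CMPK2 was at 0.12 and -0.09 log2 RPKM in 7.5% GelMA, 1.14 and 0.66 in 5% GelMA and -0.80 and -0.87 in collagen and rose by 0.85 ± 0.19 log2 in 7.5% GelMA and 1.73 ± 0.19 in 5% GelMA. RSAD2 and CMPK2 overlap by 830 bases on opposite strands in GENCODE 29, and since the strand setting is not given, reads in that stretch cannot be told apart.

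EPSTI1 (epithelial-stromal interaction 1) was at -3.89 and -4.14 log2 RPKM in 7.5% GelMA, -1.04 and -1.83 in 5% GelMA and -3.46 and -3.68 in collagen. IFI27, a mitochondrial protein gene much used as a marker of interferon exposure, was at -1.99 and -2.20 log2 RPKM in 7.5% GelMA, -0.75 and -0.71 in 5% GelMA and -2.18 and -3.50 in collagen. For both genes the 5% libraries were highest. Every PANC1 value of both genes was under 1 RPKM, the highest being 0.488 RPKM for EPSTI1 and 0.61 for IFI27. In 5% GelMA EPSTI1 rose by 2.14 ± 0.25 log2 and IFI27 by 2.11 ± 0.31, and between 7.5% and 5% GelMA EPSTI1 differed by -2.59 ± 0.25, the largest difference of the list, and IFI27 by -1.36 ± 0.31. Such fold changes depend on the unknown offset that was added before the log. On the scale log2(RPKM + 1) the 5% changes were 0.35 for EPSTI1, 0.48 for IFI27, 0.86 for RSAD2 and 0.88 for CMPK2, all still called, against 2.64 for OASL. The IFI27 difference between 7.5% and 5% was not called without 7.5% library 2 or either 5% library (adjusted p up to 0.0851), nor in a fit of PANC1 alone (0.0652).

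The remaining genes fell into the same forms. PARP9 and PARP14, ADP-ribosyltransferase genes of macrophage and STAT regulation, and DTX3L, the ubiquitin ligase that pairs with PARP9, rose in 5% GelMA by 0.73 ± 0.09, 0.66 ± 0.09 and 0.66 ± 0.06 log2 and were not called in 7.5% GelMA (-0.05 ± 0.09, 0.19 ± 0.09 and -0.0036 ± 0.06). SAMD9, a translation-blocking factor, rose in 5% GelMA by 0.48 ± 0.09, and IFI44 by 0.97 ± 0.15. The related SAMD9L was at 0.55 and 1.13 log2 RPKM in 7.5% GelMA, 1.62 and 1.25 in 5% GelMA and 1.59 and 1.58 in collagen. It was not called in 5% GelMA (-0.14 ± 0.22) and fell in 7.5% GelMA by 0.74 ± 0.22, a call lost without 7.5% library 1 or either collagen library (adjusted p up to 0.144). SP110, a nuclear body gene, was at 1.99 and 1.96 log2 RPKM in 7.5% GelMA, 2.76 and 2.59 in 5% GelMA and 2.95 and 2.80 in collagen, with the 7.5% libraries lowest. It fell by 0.90 ± 0.11 in 7.5% GelMA (adjusted p = 7.84e-05), and was not called in 5% GelMA (-0.19 ± 0.11). LGALS3BP, a secreted glycoprotein, IFI35 and the ligase TRIM22 fell in 7.5% GelMA by 0.59 ± 0.05, 0.54 ± 0.09 and 0.47 ± 0.16, and had 5% changes of 0.03 ± 0.05, 0.10 ± 0.09 and 0.35 ± 0.16 that were not called. IFI44L was under 1 RPKM in every PANC1 library, with collagen values of -3.58 and -5.95 that lay far apart, and was not called in 5% GelMA (0.25 ± 0.59), a change that was -0.936 without collagen library 2 and 1.437 without collagen library 1.

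Counted by calls, the 42 genes formed 3 large sets in PANC1. In 11, both concentrations were above collagen and 7.5% was below 5% (IFIH1, RIGI, ISG15, IFIT1, IFIT2, IFIT3, IFIT5, OAS2, OAS3, OASL and CMPK2). In 13, 5% was above collagen, 7.5% was not called against collagen, and 7.5% was below 5% (DDX60, STAT2, HERC5, MX1, BST2, SAMD9, PARP9, PARP14, DTX3L, IFI6, IFI27, IFI44 and EPSTI1). In 7, 5% was not called against collagen and 7.5% was below both (UBE2L6, IFITM1, IFITM3, IFI35, LGALS3BP, TRIM22 and SP110). Some places in these sets rested on a single library or setting. The difference between 7.5% and 5% was not called for ISG15 without 7.5% library 1 or either 5% library (adjusted p up to 0.254) or with no mean-variance trend (0.0883). It was not called for STAT2 without any 1 of the 4 GelMA libraries (up to 0.094) or with no trend (0.053), for HERC5 without 7.5% library 1 or either 5% library (up to 0.0653), for IFIT5 without 5% library 1 (0.0515) or for CMPK2 without 5% library 1 or 7.5% library 2 (up to 0.0801). The rise of IFIT5 in 7.5% GelMA was lost without 7.5% library 2 or either collagen library (up to 0.23), in a fit of PANC1 alone (0.051) and with no trend (0.06). The fall of TRIM22 in 7.5% GelMA was not called without collagen library 1 or 7.5% library 1 (up to 0.238), nor with all libraries on the scale log2(RPKM + 1) (-0.189, adjusted p = 0.165) or in a fit of PANC1 alone (0.121). Against collagen in 7.5% GelMA, IFI27 was called without collagen library 1 (1.404), HERC5 without 7.5% library 1 (0.519), SAMD9 without 7.5% library 2 (-0.222) and PARP14 in a fit of PANC1 alone (0.188). The sets are descriptions of the calls, and a gene not called is not shown to be at the collagen level. The share of all genes with each set of calls was not counted, so the set sizes have no background beside them. By single libraries, without a threshold on p, the groups did not overlap in the order 5%, 7.5%, collagen from high to low for 14 of the 42 genes (33.3%), against 5.76% of all genes tested, and in the order 5%, collagen, 7.5% for 7 (16.7%), against 2.13%. The order collagen, 5%, 7.5% held for 3 genes (7.14%: IRF7, MX2 and SP110), against 13.9% of all genes.

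**Figure D3:**
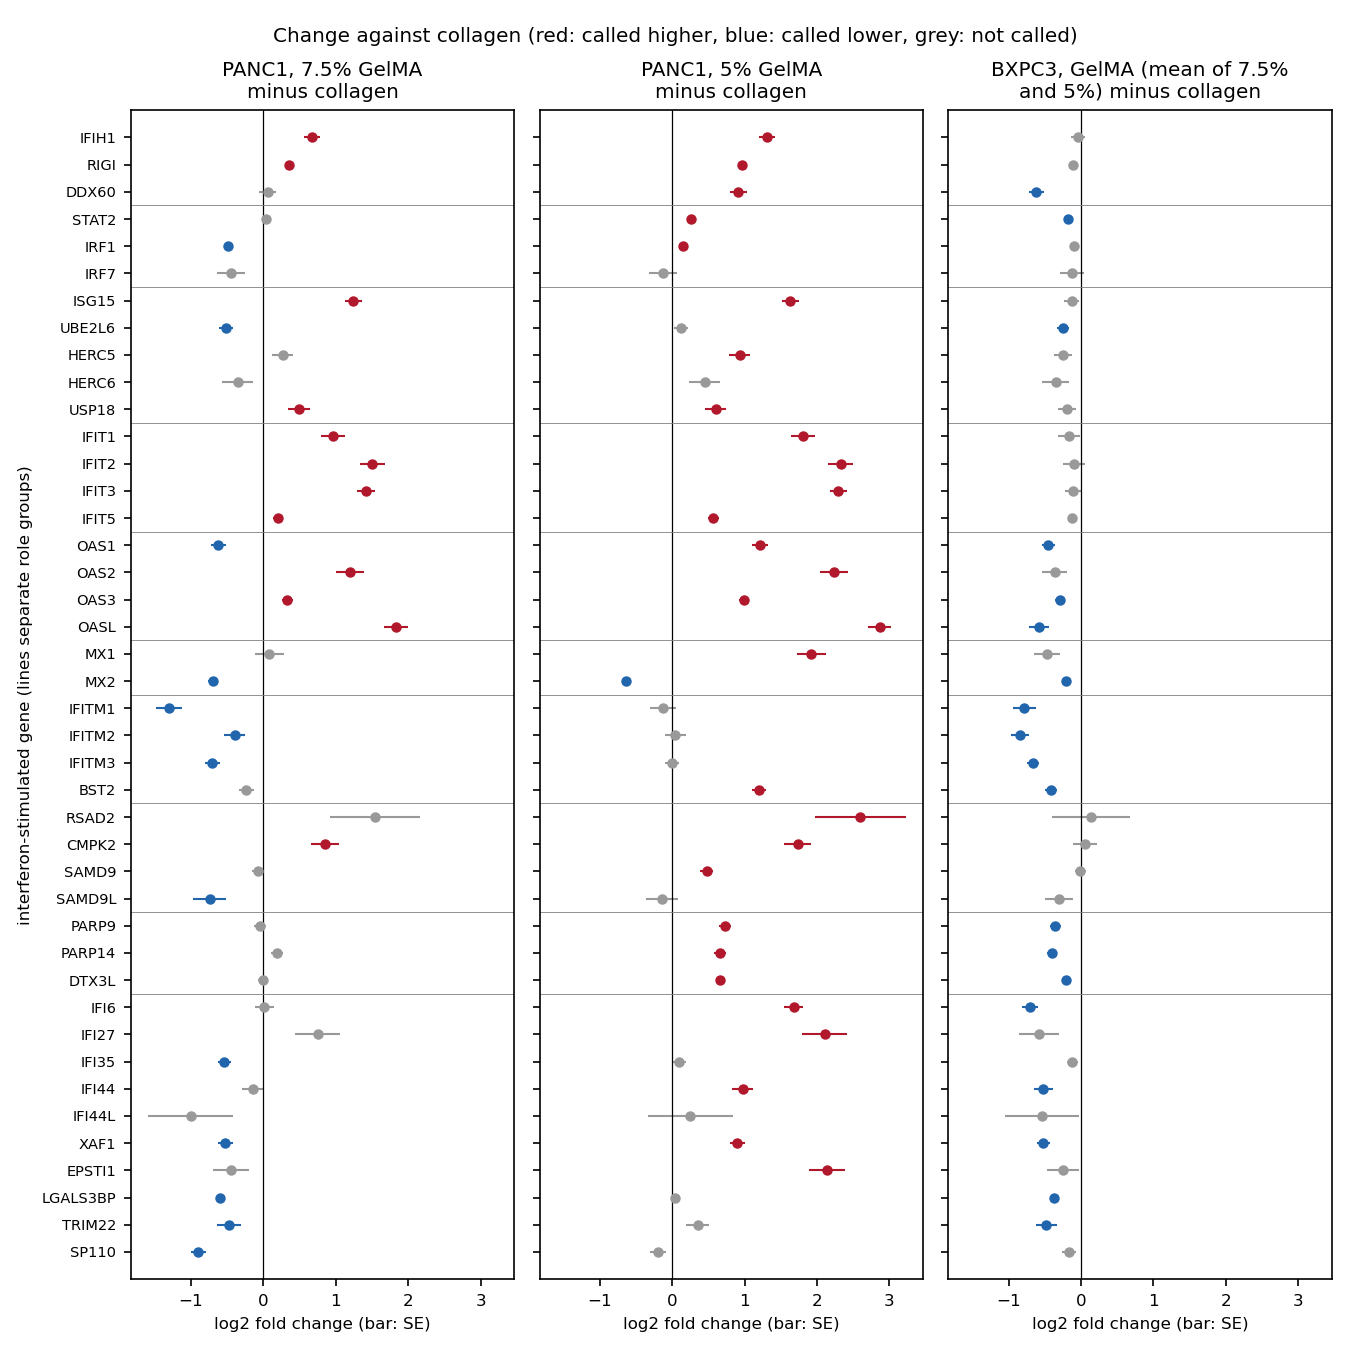
Log2 fold change (points, with bars for 1 SE) of the 42 interferon-stimulated genes against collagen in PANC1 at 7.5% GelMA, in PANC1 at 5% GelMA and in BXPC3 over both GelMA concentrations, coloured by call. The left panel holds 12 genes called higher and 13 lower, the middle panel 29 higher, up to 2.86 log2 for OASL, and the right panel 19 lower and 0 higher.

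The promoters of the listed genes were read for the 2 elements through which STAT and IRF factors act. RefSeq promoter windows (GRCh38.p14, 250 bases before to 50 bases from the start) were at hand for 34 of the 42 genes, some with several starts. The core of the interferon-stimulated response element was searched as GAAA, any 2 bases and GAAA again on both strands, with overlapping matches kept, and the gamma-activated site as TTCNNNGAA. This response element core was found at 23 of the 34 genes (67.6%), against 4.38% of 27305 genes with such a window. TTCNNNGAA was found at 11 of the 34 (32.4%), against 9.38%, and 7 genes held both. The list is made of interferon-stimulated genes, so an excess of this element comes with the choice of list and is no result about GelMA. A match is a description of letters and not evidence of binding. The stretches below show the matches in capitals, either as GAAA, 2 bases, GAAA or as the reverse complement TTTC, 2 bases, TTTC, with overlapping matches running together. The first 4 are from genes above collagen in both concentrations, the next 3 from genes above collagen in 5% GelMA alone, and the last 2 from IFITM genes that fell in 7.5% GelMA.
ISG15 (chr1:1013377-1013426, plus strand): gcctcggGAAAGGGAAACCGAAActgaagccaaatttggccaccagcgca
IFIT1 (chr10:89392498-89392547, plus strand): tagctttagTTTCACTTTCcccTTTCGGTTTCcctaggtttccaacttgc
IFIT3 (chr10:89327832-89327891, plus strand): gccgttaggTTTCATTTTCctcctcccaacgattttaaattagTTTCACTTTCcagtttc
OAS3 (chr12:112938324-112938350, plus strand): aagaaacGAAACTGAAAgcagggaatt
IFI6 (chr1:27672268-27672357, minus strand): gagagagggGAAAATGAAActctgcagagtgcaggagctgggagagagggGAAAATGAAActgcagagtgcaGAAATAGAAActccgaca
BST2 (chr19:17405736-17405770, minus strand): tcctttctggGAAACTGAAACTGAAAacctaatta
DTX3L (chr3:122564301-122564341, plus strand): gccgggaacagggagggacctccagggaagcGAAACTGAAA
IFITM1 (chr11:313990-314043, plus strand): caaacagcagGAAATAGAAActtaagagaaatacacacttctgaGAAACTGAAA
IFITM3 (chr11:320881-320920, minus strand): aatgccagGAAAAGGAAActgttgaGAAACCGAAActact

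The response element core was spread over the PANC1 sets. It was in 6 of the 8 genes with a window in the set above collagen at both concentrations, in 12 of 13 in the set above collagen at 5% alone, in 3 of 6 in the set lowest at 7.5%, and in 0 of the 3 genes IRF1, OAS1 and XAF1. The search covered a single spacing within the promoter window, so a gene without a match is not shown to lack a response element. The stretch from IFI6 holds 3 matches. DTX3L starts 38 bases from one of the PARP9 starts, on the other strand, and the match shown falls in the windows of both genes, whose 5% changes in PANC1 were 0.73 and 0.66 log2. PARP9 and DTX3L also overlap by 340 bases on opposite strands in GENCODE 29, so that their reads could be mixed.

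BXPC3 in GelMA had lower levels of many of the same genes, by small amounts. In GelMA (mean of 7.5% and 5%) against collagen 19 of the 42 genes fell, 0 rose and 23 were not called, where 36.1% of all genes were called, 19.4% higher and 16.7% lower. At an unadjusted p under 0.05 limma gave 21 lower and 0 higher. The median of the list was -0.27 log2, beside 0.01 over all genes, and no gene changed 2-fold. The spread is shared over both lines, and IFI27, IFI44L and HERC6 were under 1 RPKM in every PANC1 library. On the scale log2(RPKM + 1) limma also called IFI27 (-0.579, adjusted p = 0.000186), IFI44L (-0.54, 0.00182), HERC6 (-0.346, 0.0119) and MX1 (-0.462, 0.0329) lower. In 7.5% GelMA 23 genes fell and 0 rose, where 29.8% of all genes were called and 13.7% lower, and limma gave 28 lower and 0 higher at an unadjusted p under 0.05. In 5% GelMA 12 fell and 0 rose, where 29.9% were called and 13.7% lower, with 16 lower and 0 higher unadjusted. In 26 of the 42 genes both collagen libraries were above all 4 GelMA libraries, against 25.2% of all genes. The 26 include IRF7, which was at -4.56 to -4.27 log2 RPKM in BXPC3, where such an order carries little weight.

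These BXPC3 counts were lower when certain single libraries were left out. The share of all genes called in such reduced fits is not given here. A loss particular to the list therefore cannot be told from the weaker testing with fewer libraries. Without BXPC3 collagen library 2, the higher of the pair for most of the genes, 8 genes were called lower in GelMA in place of 19, 13 in 7.5% GelMA in place of 23, and 3 in 5% GelMA in place of 12. Without 7.5% library 2 the 7.5% count was 12, and without 5% library 2 the 5% count was 5.

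The largest falls in BXPC3 were those of IFITM2, IFITM1, IFI6 and IFITM3, in that order. IFITM2 was at 4.43 and 4.33 log2 RPKM in 7.5% GelMA, 4.18 and 4.50 in 5% GelMA and 5.05 and 5.34 in collagen. IFITM1 was at 6.08 and 5.75 log2 RPKM in 7.5% GelMA, 6.02 and 6.08 in 5% GelMA and 6.63 and 6.90 in collagen. IFITM3 was at 7.77 and 7.56 log2 RPKM in 7.5% GelMA, 7.57 and 7.78 in 5% GelMA and 8.21 and 8.45 in collagen. For each, both collagen libraries were above the 4 GelMA libraries and the GelMA groups overlapped. IFITM2, IFITM1 and IFITM3 fell by 0.84 ± 0.12, 0.78 ± 0.16 and 0.66 ± 0.09 log2 (adjusted p = 0.000711, 0.00386 and 0.000381), and the IFITM1 value was -0.65 (adjusted p = 0.05) without collagen library 2. IFI6 was at 9.40 and 9.14 log2 RPKM in 7.5% GelMA, 9.33 and 9.59 in 5% GelMA and 9.91 and 10.22 in collagen. DDX60 was at 6.02 and 5.72 log2 RPKM in 7.5% GelMA, 6.24 and 6.20 in 5% GelMA and 6.59 and 6.74 in collagen. OASL was at 5.72 and 5.77 log2 RPKM in 7.5% GelMA, 5.89 and 5.95 in 5% GelMA and 6.31 and 6.50 in collagen. These too were highest in both collagen libraries, and IFI6, DDX60 and OASL fell by 0.70 ± 0.11, 0.62 ± 0.10 and 0.58 ± 0.14 log2. The OASL call was lost without collagen library 2 (-0.48, adjusted p = 0.0916).

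Of the sensor, STAT and IRF genes of BXPC3, DDX60 and STAT2 fell in GelMA, with a change of -0.62 ± 0.10 log2 for DDX60. IFIH1 was at 5.23 and 5.12 log2 RPKM in 7.5% GelMA, 5.43 and 5.25 in 5% GelMA and 5.18 and 5.41 in collagen. RIGI was at 5.66 and 5.59 log2 RPKM in 7.5% GelMA, 5.90 and 5.77 in 5% GelMA and 5.78 and 5.90 in collagen. The IFIH1 groups overlapped, the RIGI 7.5% libraries were below the other 4, and the GelMA change was not called (-0.04 ± 0.09 and -0.11 ± 0.05 log2). STAT2 was at 7.25 and 7.15 log2 RPKM in 7.5% GelMA, 7.40 and 7.23 in 5% GelMA and 7.40 and 7.47 in collagen and fell by 0.18 ± 0.05 (adjusted p = 0.0155, 0.13 without collagen library 2 and 0.0506 in a fit of BXPC3 alone). IRF1 was at 6.06 and 6.14 log2 RPKM in 7.5% GelMA, 6.22 and 6.19 in 5% GelMA and 6.20 and 6.29 in collagen and was not called (-0.09 ± 0.04), though it was without collagen library 1 (adjusted p = 0.0463). In 7.5% GelMA alone 4 of these genes were called lower, with changes of -0.79 ± 0.12 log2 for DDX60, -0.23 ± 0.05 for STAT2, -0.21 ± 0.06 for RIGI and -0.14 ± 0.04 for IRF1. Without collagen library 2 or 7.5% library 2 the calls of STAT2 and RIGI were lost (adjusted p up to 0.09 and 0.174), and without collagen library 2 or 7.5% library 1 that of IRF1 (up to 0.215). The RIGI call was also lost without 7.5% library 1 (adjusted p = 0.054), and the RIGI and IRF1 calls in a fit of the BXPC3 libraries alone (0.0543 and 0.0851) and with no mean-variance trend (0.0602 and 0.0762). IRF7 was near the bottom of the scale, at -4.56 to -4.27 log2 RPKM over the 6 libraries. The 4 IFIT genes, which rose in PANC1, were not called in BXPC3 GelMA (-0.17 to -0.09 log2).

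Between the 2 GelMA concentrations in BXPC3, limma called 0 of the 42 genes, where 0.0823% of all genes were called, 0.0443% higher and 0.038% lower. At an unadjusted p under 0.05 it gave 6 lower and 0 higher, the median was -0.17 log2, and 40 of the 42 fold changes were negative.

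The difference between the lines was tested as an interaction (PANC1 GelMA effect minus BXPC3 GelMA effect). It was called higher for 27 of the 42 genes and lower for 2, where 39.1% of all genes were called, 18.5% higher and 20.6% lower. The median was 0.75 log2. OASL had the largest difference, 2.92 ± 0.20 log2 (adjusted p = 4e-06), made of 2.35 in PANC1 and -0.58 in BXPC3, and was followed by OAS2 (2.08 ± 0.24), IFIT2 (2.01 ± 0.21), IFI27 (2.01 ± 0.38) and IFIT3 (1.97 ± 0.15). The 3 sensor genes were called, with 1.03 ± 0.13 for IFIH1, 0.77 ± 0.08 for RIGI and 1.11 ± 0.14 for DDX60, and STAT2 with 0.32 ± 0.07. The difference was not called for IFITM1 (0.07 ± 0.22), which was lower in GelMA in both lines. The 2 genes called lower were MX2 (-0.46 ± 0.07) and SP110 (-0.38 ± 0.13). The SP110 call was lost without either BXPC3 collagen library, either PANC1 7.5% library, BXPC3 5% or 7.5% library 1, PANC1 collagen library 1 or PANC1 5% library 2, which leaves 1 gene.

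The difference between 7.5% and 5% GelMA also differed between the lines. It was called lower in PANC1 for 18 of the 42 genes and higher for 0 (29 and 0 at an unadjusted p under 0.05 in limma), where 8.97% of all genes were called, 4.01% higher and 4.96% lower. EPSTI1 (-2.44 ± 0.35 log2), OAS1 (-1.62 ± 0.15), MX1 (-1.53 ± 0.29), IFI6 (-1.47 ± 0.18) and XAF1 (-1.30 ± 0.15) held the largest differences. EPSTI1 was under 1 RPKM in every PANC1 library, and on the scale log2(RPKM + 1) its difference was -0.238 and not called (adjusted p = 0.343). The count of 18 was 9 without PANC1 5% library 1, 10 without BXPC3 5% library 1 and 10 without BXPC3 7.5% library 1.

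The median difference between the lines was larger than that of any comparison of matrices. In collagen the median over the 42 genes was 3.69 and 3.58 log2 RPKM in PANC1 and 6.40 and 6.55 in BXPC3. PANC1 was called lower for 39 genes and higher for 1, where 86.2% of all genes were called, 47.5% higher and 38.7% lower in PANC1, and the median difference was -2.59 log2. Over all matrices PANC1 was called lower for 39 and higher for 2 (IRF7 and IFITM2), where 91.8% of all genes were called, 50% higher and 41.9% lower. Every PANC1 library was below every BXPC3 library for 35 genes (32.7% of all genes had that order) and above it for 1 (39.1%). A gene under 1 RPKM in PANC1 passed the filter through BXPC3 and had to differ, so these counts describe the list and carry no support.

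**Figure D4:**
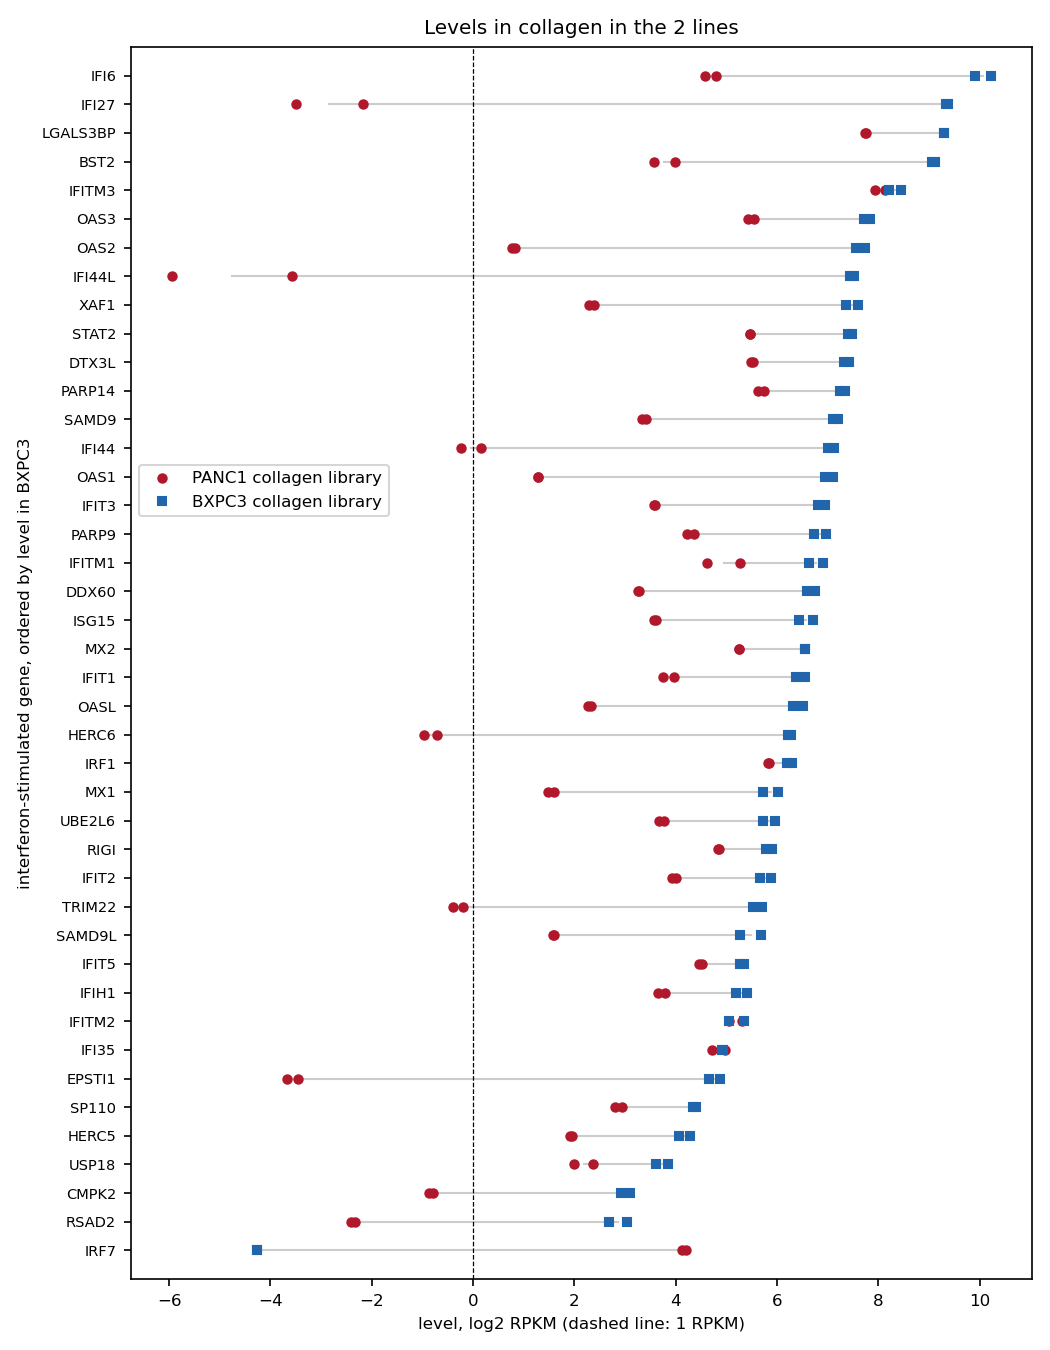
Log2 RPKM of the 42 interferon-stimulated genes in the 2 PANC1 collagen libraries (red circles) and the 2 BXPC3 collagen libraries (blue squares), ordered by the BXPC3 level; the grey line joins the means and the dashed line marks 1 RPKM. PANC1 lies below BXPC3 for most genes, by over 12 log2 for IFI27 and IFI44L, and above it for IRF7.

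The genes lowest in PANC1 were HERC6, IFI27, IFI44L and EPSTI1, which were under 1 RPKM in all 6 PANC1 libraries, and RSAD2, CMPK2, IFI44 and TRIM22, which were under 1 RPKM in some of them. IFI27 was at -3.50 to -0.71 log2 RPKM in PANC1 and 8.58 to 9.38 in BXPC3, where it was among the highest of the list, and IFI44L was at -5.95 to -3.58 in PANC1 and 6.60 to 7.52 in BXPC3. With no read counts a low RPKM does not show that a transcript was absent. The 3 OAS enzymes and BST2 also stood far apart. In collagen OAS1 was -5.74 ± 0.11 log2 in PANC1 relative to BXPC3, OAS2 -6.85 ± 0.19, OAS3 -2.29 ± 0.07 and BST2 -5.31 ± 0.10. The ranges of the lines overlapped for 6 genes, RIGI, IFIT2, IFIT5, IFITM2, IFITM3 and IFI35. IFIT2 in PANC1 reached 6.30 and 6.29 log2 RPKM in 5% GelMA, above all 6 BXPC3 libraries (5.42 to 5.89).

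IRF7 was the 1 gene of the list with every PANC1 library above every BXPC3 library. Being under 1 RPKM in BXPC3, it passed the filter through PANC1 and had to differ, so its call carries no support. IRF7 (ENSG00000185507, chromosome 11, 612553 to 615999, minus strand) was at 3.64 to 4.21 log2 RPKM (12.5 to 18.5 RPKM) in the 6 PANC1 libraries and at -4.56 to -4.27 (0.0423 to 0.052 RPKM) in the 6 BXPC3 libraries. It was the 1 member of the list under 1 RPKM in every BXPC3 library, while BXPC3 held the higher level of STAT2 (5.46 to 5.74 in PANC1, 7.15 to 7.47 in BXPC3) and of IRF1 (5.32 to 5.99 in PANC1, 6.06 to 6.29 in BXPC3).

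Other genes of the interferon pathway, 58 listed by role with 48 tested, were counted in the same way. In PANC1 7.5% GelMA 11 rose and 16 fell, 56.2% called against 53.8% of all genes (27.2% higher, 26.6% lower), which is near the background. In PANC1 5% GelMA 19 rose and 7 fell, 54.2% against 46.2% (23% higher, 23.2% lower), in total also near the background. Between 7.5% and 5% GelMA in PANC1, 1 was higher and 17 lower, 37.5% against 18.7% (9.16% higher, 9.56% lower). In BXPC3 GelMA 4 rose and 11 fell, 31.2% against 36.1% (19.4% higher, 16.7% lower), in total no more than the background. Of the 8 interferon genes listed, IFNE, an epithelial type I interferon, was the 1 analysed here. It was at 1.65 and 1.27 log2 RPKM in PANC1 7.5% GelMA, 2.23 and 2.37 in 5% GelMA and 2.09 and 2.38 in collagen, and at -3.00 to -2.54 in BXPC3. IFNE fell in 7.5% GelMA by 0.77 ± 0.24 log2 (adjusted p = 0.021) and was not called in 5% GelMA (0.06 ± 0.24).

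None of the 6 receptor genes was called higher in PANC1 5% GelMA. IFNAR1 and IFNAR2, the type I receptor chains, had changes of -0.03 ± 0.05 and -0.23 ± 0.10 log2 there, which were not called, and IFNGR1, a chain of the interferon gamma receptor, fell by 0.22 ± 0.07 (adjusted p = 0.0256). IFNGR2 (0.15 ± 0.07), IFNLR1 (0.62 ± 0.27) and IL10RB (0.83 ± 0.34), the last 2 being the type III receptor chains, were not called. In 7.5% GelMA IFNAR2 and IFNGR1 fell by 0.38 ± 0.10 and 0.24 ± 0.07, and IFNGR2 and IFNLR1 rose by 0.19 ± 0.07 and 1.12 ± 0.27. The 4 largest calls in PANC1 5% GelMA outside the list were CXCL10 (1.58 ± 0.27 log2) and CXCL11 (1.25 ± 0.44), chemokine genes induced by interferon, NLRC5 (1.44 ± 0.15), a regulator of MHC class I genes, and TLR3 (-1.02 ± 0.20), an endosomal RNA sensor. CXCL10 and CXCL11 were under 1 RPKM in every PANC1 library (-3.44 to -1.25 and -5.04 to -2.67 log2 RPKM). In BXPC3 GelMA IFNAR1, IFNAR2 and IFNGR2 fell by 0.22 ± 0.04, 0.41 ± 0.09 and 0.27 ± 0.06 log2.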

How the data were processed

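Gene expression was measured by RNA sequencing in 12 libraries, 2 in each of 6 groups; an RNeasy kit and poly-A capture were used, per the labels' protocols. HISAT2 2.1.0, HTSeq and the build hg38 (GRCh38) are named in the submitters' processing notes. Not given in the sources used here are strand, annotation, gene lengths and offset.

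The authors deposited log2 RPKM for 16299 genes (-8.66 to 13.74), with 0 columns of per-sample values unmapped. Sorted from high to low, the libraries differed by less than 0.05 at each of the top 13758 ranks, so the table was taken as quantile normalized by the authors; a change shared by most genes would be removed by that step. Read counts were not used, so depth is unknown and no counting interval was given.

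Symbols came from a table of gene names (16250 IDs) and GENCODE 29 (49 IDs), with positions from GENCODE 29 and promoter sequences from RefSeq (GRCh38.p14). Those reaching 1 RPKM in 2 libraries or more were tested (15794, with 505 left out) in limma 3.58.1 (R 4.3.3) as 1 model of 6 group means with a mean-variance trend, 6 residual and 3.89 prior degrees of freedom, and Benjamini-Hochberg adjustment over all genes tested in each comparison. A log2 fold change is a difference between group means and is given with its standard error (SE). The code was tested on simulated data. Alternatives were log2(RPKM + 1), other filters, each line alone, a replicate block, no trend, median centring and leaving out each library.

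The members and lists were chosen with earlier results of these data known. Genes with values in every library were the sensor, STAT and IRF genes, the 10 largest changes called in PANC1 5% GelMA, the 5 largest between PANC1 concentrations, the 6 largest in BXPC3 GelMA and the 3 largest in each direction in PANC1 7.5% GelMA; genes not called in PANC1 5% GelMA are named, and the other genes shown by library and IFNE were chosen after their values were seen.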

Additional observations from a re-analysis of the deposited data

Results flagged for a closer look

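Effects of GelMA that differed between the lines by the interaction test are listed here, as PANC1 effect minus BXPC3 effect. For GelMA against collagen the difference was called higher for 27 of the 42 genes and lower for 2. Of all genes, 18.5% were called higher and 20.6% lower there. For 7.5% against 5% GelMA it was called higher for 0 and lower for 18, beside 4.01% higher and 4.96% lower of all genes. Among the genes with values in every library, the difference for GelMA against collagen was 1.03 log2 for IFIH1, 0.77 for RIGI and 0.32 for STAT2. It was 2.92 for OASL, 2.01 for IFIT2, 1.97 for IFIT3, 1.55 for IFIT1 and 2.08 for OAS2. It was 1.47 for MX1, 1.10 for EPSTI1, 2.01 for IFI27 and 1.24 for CMPK2. For each of these the fold change was positive in PANC1 and negative in BXPC3, except in BXPC3 for CMPK2 (0.06 ± 0.16 log2). In BXPC3 STAT2 and OASL alone of these genes were called lower. The BXPC3 changes of the other genes were not called, such as -0.04 ± 0.09 for IFIH1 and -0.11 ± 0.11 for IFIT3. IFI27 and MX1 were called lower in BXPC3 on the scale log2(RPKM + 1). The EPSTI1 difference was 0.99 and not called without BXPC3 collagen library 2 or PANC1 collagen library 2 (adjusted p = 0.0682 and 0.0594). EPSTI1, IFI27 and CMPK2 were at or under about 1 RPKM in most PANC1 libraries, where a fold change depends on the unknown offset.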

How the results depend on the processing

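Counts of genes called within PANC1 stayed within 1.5 times the reported values under every alternative except the 1 gene lower in 5% GelMA (1 to 3 over left-out libraries). Leaving out single libraries gave 10 to 13 higher and 10 to 15 lower in PANC1 7.5% GelMA, 28 to 29 higher in 5% GelMA, and 27 to 35 lower between the concentrations. In BXPC3 the genes called lower ran from 8 to 20 in GelMA, 12 to 22 in 7.5% and 3 to 10 in 5%, each below or near the full count, partly since fewer samples enter the fit. The line difference in the GelMA effect ran from 25 to 30 higher and 1 to 2 lower, with 1 lower under log2(RPKM + 1) and without the mean-variance trend; the line difference between concentrations ran from 9 to 17 lower, with 9 without the trend. With at least 1 RPKM required in all 12 libraries, genes higher in PANC1 than in BXPC3 numbered 0 in collagen and 1 over all matrices, since IRF7 is then not tested. IFI44L reversed in PANC1 when 1 collagen library was left out: the mean GelMA effect ran from -1.563 without library 2 to 0.811 without library 1 (adjusted p = 0.00189 and 0.0416), and the 5% effect from -0.936 to 1.437 (0.0388 and 0.00607). Same-numbered libraries did not deviate together (correlations of -0.048 to 0.077), so the numbers are not taken to pair samples. With the replicate block 33 genes were lower between the PANC1 concentrations in place of 35, 29 were higher in 5% GelMA, 18 were lower in BXPC3 GelMA and 14 in the line difference between concentrations. Under the block the PANC1 7.5% change of IFI27 became called (0.749, adjusted p = 0.049), and the fall of TRIM22 in 7.5% GelMA (0.0587) and the differences of ISG15 (0.071) and HERC6 (0.0531) between concentrations were no longer called. Depth is unknown, so low genes rest on the spread between 2 libraries alone.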
